A study of Homo sapiens with 9 samples.

Results

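Loss of FIBP, the gene for the intracellular protein that binds acidic fibroblast growth factor, was brought about in H1299 cells with a pair of unrelated siRNAs, and the libraries of the second, Si-FIBP#2, were set directly against those of the first, Si-FIBP#1. H1299 is an established human lung cancer line. The comparison took 6 of the 9 RNA-seq samples of the series, 3 of cells given Si-FIBP#1 and 3 of cells given Si-FIBP#2, and the transfection protocol used 100 nM of siRNA for 48 hours. The other 3 samples received the control siRNA Scramble, and they are used only to place each gene against cells that kept FIBP. All 9 samples are of the same line, and the labels name no treatment besides the transfection. Transcript values in FPKM (fragments per kilobase of transcript, scaled to the mapped fragments of a library) were summed for each gene, and the 14589 of 60966 genes at 1 FPKM or more in no fewer than 3 of these 6 samples were compared. Differences are given as log2(FPKM + 1) of Si-FIBP#2 minus Si-FIBP#1, so a positive value means a higher level after Si-FIBP#2. A gene is said to be called when its adjusted p was below 0.05 and its difference was past 2-fold.

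An siRNA is a short RNA duplex. Its guide strand is loaded into an Argonaute protein and leads to cleavage of an mRNA that pairs with it along its whole length. The same guide can also act as a microRNA does, lowering many mRNAs whose 3′ UTR (the untranslated part after the stop codon) pairs only with guide bases 2 to 8, the seed. Both designs here aim at the coding sequence of FIBP, so they share their target mRNA and differ in their seeds. The target sites are shown because every later comparison of matches refers to them. Capitals mark the 7 target bases that pair with the seed, and in the guides the seed itself.
Si-FIBP#1 target: ggtggacaataTTCAGCAa
Si-FIBP#1 guide: uUGCUGAAuauuguccacc
Si-FIBP#2 target: ccatcgtcttcTTTGCTAa
Si-FIBP#2 guide: uUAGCAAAgaagacgaugg
On GRCh38 the first site lies at chr11:65886351-65886369 in exon 4 of FIBP and the second at chr11:65885634-65885652 in exon 5, both coding, on the minus strand (GENCODE release 29). None of 2370 mature human microRNAs of RefSeq has the same bases 2 to 8 as either guide.

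FIBP was low with both siRNAs, and no difference between them was detected. Its level was 7.49, 7.77 and 4.30 FPKM in the Si-FIBP#1 samples and 7.13, 5.92 and 8.21 FPKM in the Si-FIBP#2 samples, against 81.9 ± 5.71 FPKM (SD, n = 3) with Scramble. The 2 knockdown groups overlapped. The log2 difference between them was 0.13 with a 95% confidence interval of -0.34 to 0.60 (limma, Benjamini-Hochberg adjusted p = 0.725), and it turned to -0.10 without Si-FIBP#1 replicate 3. FIBP transcripts that hold both target sites averaged 63.0 FPKM with Scramble and 0.50 and 0.73 FPKM after Si-FIBP#1 and Si-FIBP#2. FIBP transcripts that the authors' assembly had added made up much of what remained, at 3.20 and 3.44 FPKM, and whether these hold the sites was not analysed.

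The libraries held an estimated 20450000 to 23150000 fragments, and of 10 markers of lung epithelium only the keratins KRT8, KRT18 and KRT7 passed the filter. KRT19, EPCAM, NKX2-1, SFTPB, SFTPC and NAPSA were at 0 to 0.66 FPKM in the 9 libraries, and CDH1, the epithelial cadherin, was listed at 0 in all, so most of these defining markers were at or near 0. None of the 15 markers of other cell types reached the filter, and CD3E, HBB and LUM, of T cells, red cells and fibroblasts, were listed at 0. Mitochondrially encoded transcripts took 14.2% to 14.6% of the summed FPKM after Si-FIBP#1 and 12.2% to 13.2% after Si-FIBP#2. The first principal component of the 6 samples separated the groups, and the second (19.5% of the variance) set Si-FIBP#2 replicate 2 apart, at -23.74 where the others lay between -4.26 and 12.14. This replicate was the Si-FIBP#2 sample nearest to the Si-FIBP#1 mean in 24 of the 42 genes called lower and in 22 of the 46 called higher, and values without it are given where they matter. The groups are named as the labels name them, although, as shown at the end, genes whose 3′ UTR matches the listed Si-FIBP#2 guide were lower in the libraries labelled Si-FIBP#1. Whether the labels of the groups or the listed sequences were exchanged was not tested. An exchange of the groups would turn the sign of every difference given here and every statement of a level after Si-FIBP#1 or Si-FIBP#2, and an exchange of the sequences would change only which siRNA each sequence belongs to.

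With FIBP at 6.52 ± 1.93 and 7.09 ± 1.15 FPKM (SD, n = 3), 88 genes were called between the siRNAs (0.603% of those tested), 46 higher and 42 lower after Si-FIBP#2 (0.315% and 0.288%). Passing the adjusted p alone, without the 2-fold limit, were 1053 genes higher and 603 lower (7.22% and 4.13%). The groups did not overlap in 33.4% of all genes tested, and the median difference over all genes was 0.039. Each side of the calls held 31 protein-coding genes, and the rest included antisense RNAs, lincRNAs, pseudogenes and assembled loci. Of the 88 calls, 43 stood whichever of the 6 libraries was left out. For the genes called higher the Scramble mean was between the siRNA means in 28, below both in 12 and above both in 6, and it was nearer to the Si-FIBP#1 mean in 26 of 46. For the genes called lower the Scramble mean was between the 2 siRNA means in 22, above both in 13 and below both in 7, and it was nearer to the Si-FIBP#1 mean in 31 of 42.

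The largest fall after Si-FIBP#2 among abundant mRNAs was that of BTF3, the beta subunit of the nascent polypeptide-associated complex, which meets new protein chains at the ribosome. It was at 1097, 1107 and 1142 FPKM after Si-FIBP#1 and at 188.98, 301.88 and 171.46 FPKM after Si-FIBP#2, where Scramble averaged 1097 FPKM. The 3 Si-FIBP#2 samples thus lay far below all others, with replicate 2 the highest of them. The log2 difference was -2.38 (limma, adjusted p = 0.00111), which left 19.8% of the Si-FIBP#1 level. BTF3 has processed pseudogenes, with which its reads could be shared. PRPSAP2, a regulatory partner of phosphoribosyl pyrophosphate synthetase, which makes the sugar phosphate of nucleotides, followed the same course. It was at 47.53, 48.05 and 55.44 FPKM after Si-FIBP#1 and at 19.24, 19.33 and 18.62 FPKM after Si-FIBP#2, a log2 difference of -1.35 (adjusted p = 0.000435). ARL6IP5, a membrane protein of the endoplasmic reticulum, was at 31.44, 30.85 and 32.61 FPKM after Si-FIBP#1, at 13.17, 11.24 and 11.22 FPKM after Si-FIBP#2 and at 32.8 FPKM with Scramble, and it fell by 1.34 on the log2 scale (adjusted p = 0.000569). In PRPSAP2 and ARL6IP5 the Si-FIBP#2 samples lay close together and apart from the other 6.

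THBS1, DAG1 and ITGB1 were also called lower. THBS1, the matrix glycoprotein thrombospondin 1, was at 12.04, 9.02 and 8.77 FPKM after Si-FIBP#1 and at 3.56, 2.48 and 2.20 FPKM after Si-FIBP#2, both under the 31.8 FPKM of Scramble. The groups did not overlap and the log2 difference was -1.55 (limma, adjusted p = 0.00293). DAG1, dystroglycan, which links laminin to the cytoskeleton, went from 41.5 ± 1.83 FPKM to 14.2 ± 5.14 FPKM (SD, n = 3), a difference of -1.54 (adjusted p = 0.00531), with Scramble at 38.6 FPKM. ITGB1, the beta 1 chain shared by many integrins, was at 460.78, 567.44 and 612.85 FPKM after Si-FIBP#1 and at 143.84, 370.78 and 142.82 FPKM after Si-FIBP#2. Its replicate 2 after Si-FIBP#2 stood at the level of Scramble (353 FPKM), and the difference of -1.46 (adjusted p = 0.0332) was lost when any of the other 5 libraries was left out, up to an adjusted p of 0.102, while without replicate 2 it was -1.91 (adjusted p = 0.00066).

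The other genes called lower came from several cellular compartments. PLSCR4, a phospholipid scramblase of the plasma membrane, was at 7.85, 10.44 and 8.15 FPKM after Si-FIBP#1 against 2.20, 3.89 and 2.07 FPKM after Si-FIBP#2, a log2 difference of -1.42 (limma, adjusted p = 0.00585). Scramble was at 1.88 FPKM, so it was the Si-FIBP#1 group that stood away from the control. ID3, an inhibitor of basic helix-loop-helix transcription factors, was at 53.2 ± 10.1 FPKM and 23.0 ± 2.23 FPKM (SD, n = 3), both below the 98.9 FPKM of Scramble, with a difference of -1.16 (adjusted p = 0.00367). MRPS12, a protein of the mitochondrial ribosome, went from 175 to 83.1 FPKM, a difference of -1.07 (adjusted p = 0.00111), and SARS2 overlaps it on the other strand. Smaller or less stable differences were those of ATP6V0E1, a subunit of the vacuolar proton pump, at -1.25 (adjusted p = 0.0179), B4GALT3, a galactosyltransferase, at -1.09 (adjusted p = 0.00936), and SFT2D3, a vesicle transport protein, at -1.40 (adjusted p = 0.0337). Scramble was at 79.55 FPKM for ATP6V0E1 (148 after Si-FIBP#1, 64.9 after Si-FIBP#2), at 15.1 FPKM for B4GALT3 (19.2 and 8.70) and at 0.03 FPKM for SFT2D3 (2.95 and 0.63). In ATP6V0E1 and SFT2D3 the Si-FIBP#1 mean thus stood further from the control. SFT2D3 passed the filter through the Si-FIBP#1 samples, where it was high, and only replicate 2 of Si-FIBP#2 reached 1 FPKM. ATP6V0E1 and SFT2D3 lost the call without 5 of the 6 libraries, and gave -1.57 and -1.82 without Si-FIBP#2 replicate 2. B4GALT3 was at -0.93 without Si-FIBP#2 replicate 3.

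**Figure D1:**
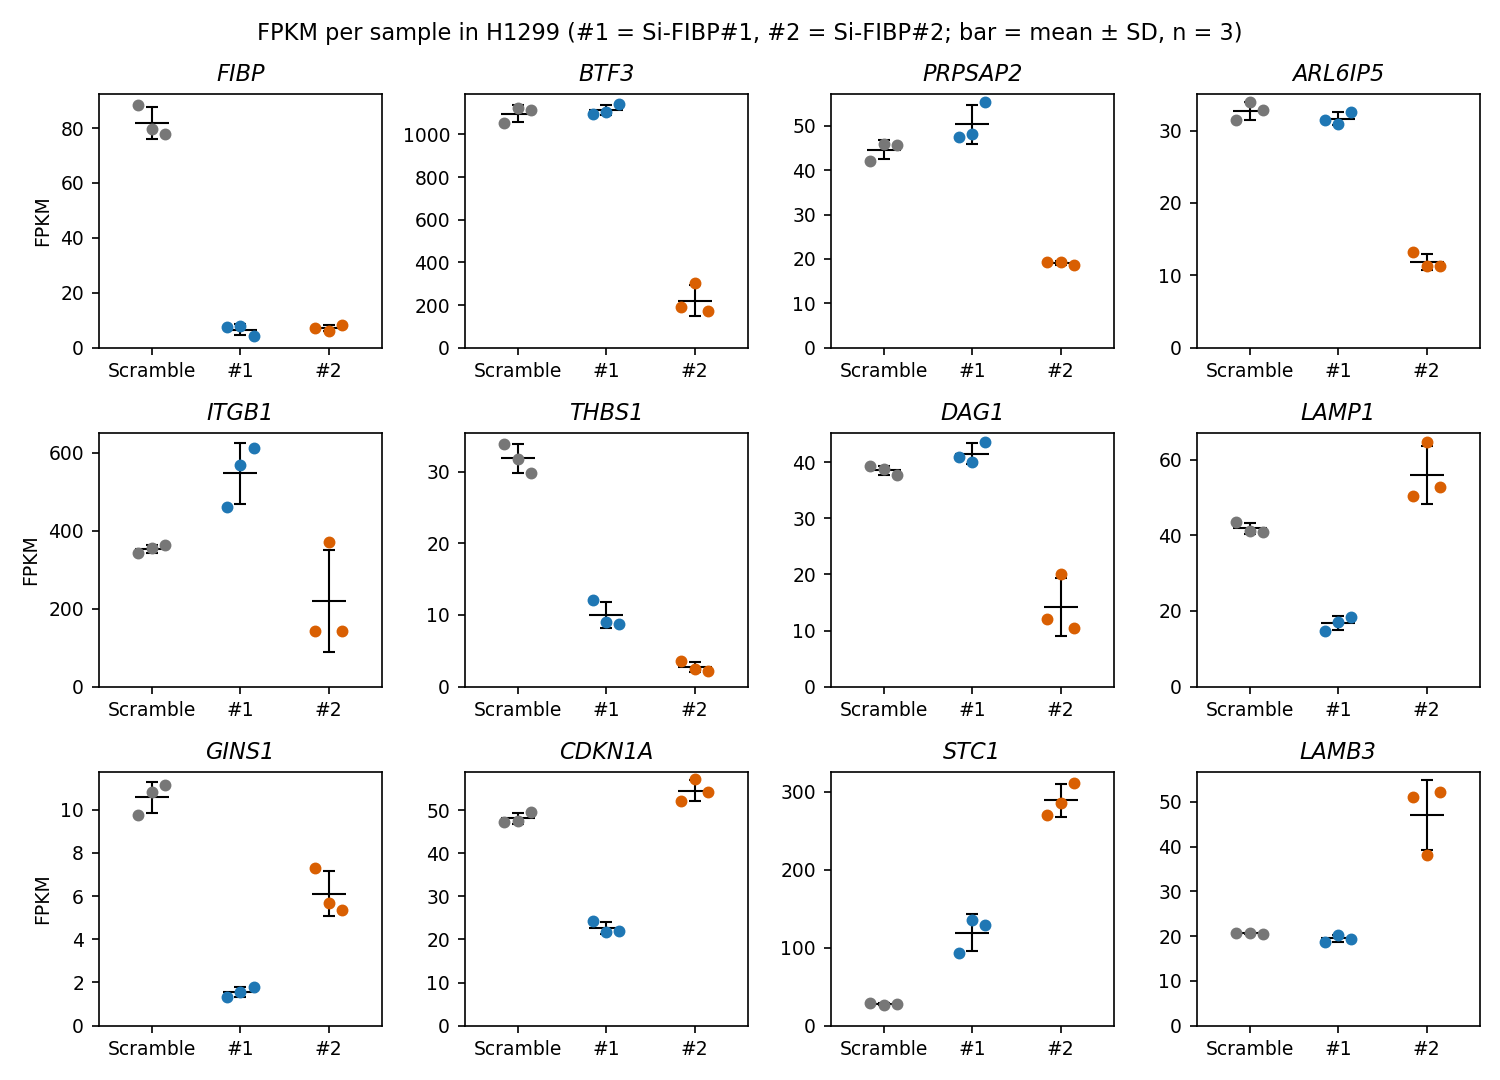
FPKM of 12 genes in each of the 9 samples, with Scramble, Si-FIBP#1 and Si-FIBP#2 along the x axis of each panel (points are samples, bars are the mean ± SD, n = 3, and each y axis starts at 0). FIBP is low with both siRNAs, and LAMP1, GINS1 and CDKN1A are lowest after Si-FIBP#1. BTF3, PRPSAP2 and ARL6IP5 fall far below Scramble only after Si-FIBP#2, and PRPSAP2 lies slightly above Scramble after Si-FIBP#1.

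Among the genes called higher after Si-FIBP#2, several were lower than Scramble after Si-FIBP#1. LAMP1, the main glycoprotein of the lysosomal membrane, was at 14.78, 17.18 and 18.49 FPKM after Si-FIBP#1, at 50.37, 64.65 and 52.66 FPKM after Si-FIBP#2 and at 41.9 FPKM with Scramble. The groups were widely apart, and differed by 1.67 on the log2 scale (limma, adjusted p = 0.000877). CDKN1A, the cyclin-dependent kinase inhibitor p21, was at 24.21, 21.68 and 21.96 FPKM after Si-FIBP#1, at 52.21, 57.18 and 54.31 FPKM after Si-FIBP#2 and at 48.2 FPKM with Scramble. The 3 samples of Si-FIBP#1 were alike and at less than the level of any other sample, with a difference of 1.24 (adjusted p = 0.000435). PERP, a membrane protein of desmosomes, rose in the same way from 11.25, 14.49 and 15.43 FPKM to 33.56, 36.57 and 34.00 FPKM, with Scramble at 29.4 FPKM (difference 1.29, adjusted p = 0.00172). GINS1, a subunit of the replicative helicase, was below Scramble (10.6 FPKM) in both groups. It was at 1.32, 1.58 and 1.79 FPKM after Si-FIBP#1 and 7.32, 5.68 and 5.34 FPKM after Si-FIBP#2, a difference of 1.47 (adjusted p = 0.00245).

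STC1, LAMB3, DMBT1, VGF, SHCBP1L and GCNA were also called higher. STC1, the secreted glycoprotein stanniocalcin 1, was at 92.65, 135.64 and 129.61 FPKM after Si-FIBP#1 and at 269.53, 285.42 and 311.63 FPKM after Si-FIBP#2, while Scramble was at 27.5 FPKM. All 3 levels were apart, and the siRNAs differed by 1.29 (limma, adjusted p = 0.00283). LAMB3, the beta 3 chain of a basement membrane laminin, was at 18.74, 20.29 and 19.43 FPKM after Si-FIBP#1 and at 51.14, 38.07 and 52.12 FPKM after Si-FIBP#2, a difference of 1.22 (adjusted p = 0.00254). Scramble, at 20.44 to 20.78 FPKM, was slightly above all 3 Si-FIBP#1 samples. DMBT1, a secreted scavenger receptor protein of mucosal surfaces, went from 4.99 ± 1.63 to 16.4 ± 3.66 FPKM (SD, n = 3; difference 1.55, adjusted p = 0.0057). VGF, a precursor of neuroendocrine peptides that is named here after its values were seen, was at 64.69, 75.85 and 70.46 FPKM after Si-FIBP#1 and 166.56, 171.93 and 175.60 FPKM after Si-FIBP#2, a difference of 1.28 (adjusted p = 0.000435). SHCBP1L, a gene known mainly from the testis, was listed at 0 in all Si-FIBP#1 samples and at 5.81, 5.49 and 1.89 FPKM after Si-FIBP#2, for which no fold is given. With Scramble it was listed at 0 in 2 samples and at 3.44 FPKM in the other. SHCBP1L passed the filter only through the Si-FIBP#2 samples, where it was high. GCNA, a germ cell gene, had a difference of 1.54 (adjusted p = 0.0239) that was 1.12 without Si-FIBP#2 replicate 2 and was lost when any of the Si-FIBP#1 libraries was left out.

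**Figure D2:**
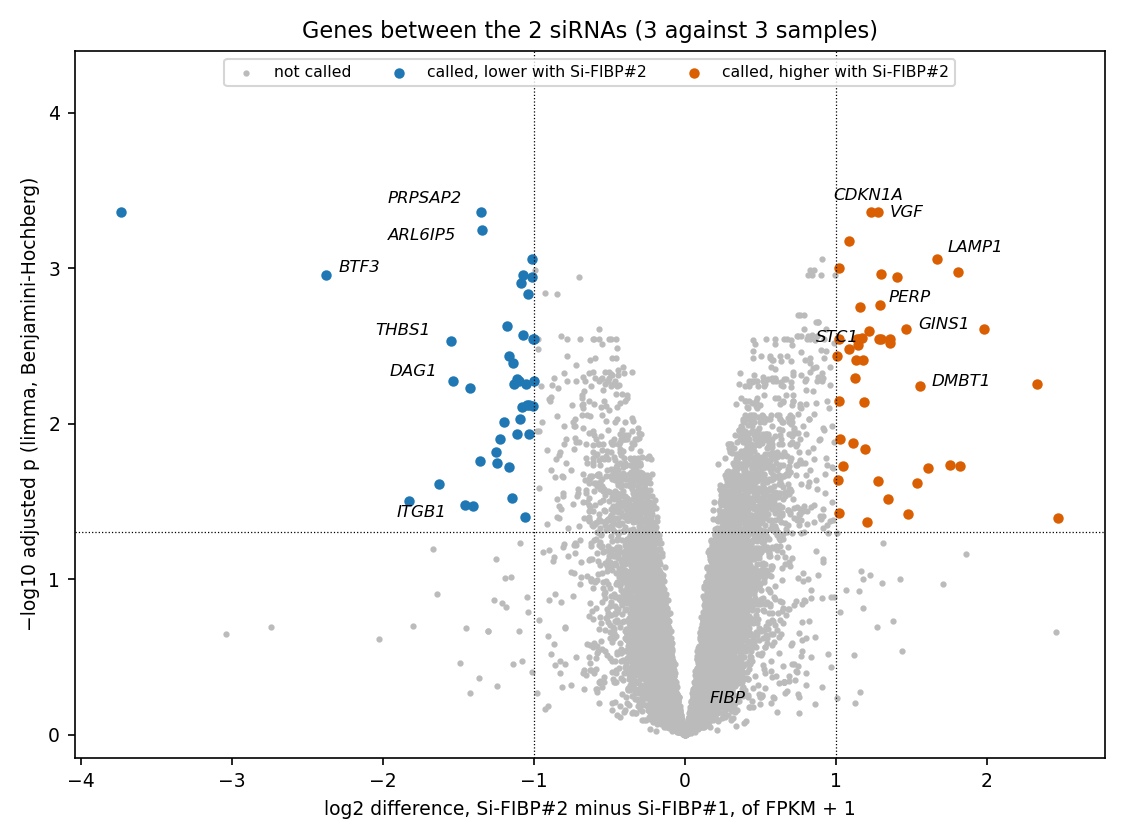
Log2 difference of FPKM + 1, Si-FIBP#2 minus Si-FIBP#1, on the x axis against -log10 of the adjusted p (limma, Benjamini-Hochberg) on the y axis for the 14589 genes tested, with dotted lines at 2-fold and at an adjusted p of 0.05. The 46 genes called higher (orange) and 42 called lower (blue) lie outside the dotted lines, and FIBP lies near the origin.

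Features named after genomic clones, most of them short or low, were also called, and AC015967.2 and AL356737.1 had the largest differences of all the genes called, at -3.73 and 2.47. AC015967.2, of 234 nt on the strand of MAPRE2, was at 17.48, 10.70 and 9.86 FPKM after Si-FIBP#1 and was listed at 0 in all Si-FIBP#2 samples and in Scramble replicate 3. AL356737.1, also of 234 nt, was at 0, 4.38 and 0.23 FPKM against 15.16, 5.66 and 9.46 FPKM (limma, adjusted p = 0.0402), and its call was lost without 4 of the 6 libraries. AC135048.3 and AC010457.1 rose by 1.98 and 1.81 on the log2 scale (adjusted p = 0.00245 and 0.00106) and kept the call without each library. Both passed the filter only through the Si-FIBP#2 samples, as did AC026436.1, and AC015967.2 only through the Si-FIBP#1 samples. The calls of AC011445.1, AC004470.2 and AC099329.1, at 1.82, 1.75 and 1.48, were each lost without 4 libraries, and that of AC026436.1, a pseudogene of 270 nt at 0 in all Si-FIBP#1 samples, without 3. On the lower side, AL049840.5 and RNF185-AS1, at -1.83 and -1.63, lost the call without 4 libraries, and the pseudogene AC135178.7, at -1.25, without 2. Among the calls, 4 of 46 higher and 2 of 42 lower were shorter than the 300-base library fragment, against 88 of 14589 tested. The FPKM of such short features is least certain. RNF185-AS1 lies opposite RNF185 and AC010457.1 opposite EGFLAM, and since no source used here says that strand was used in counting, reads of such pairs cannot be told apart.

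Gene lists are described by the members that passed the adjusted p alone, for which the shares of all genes were 7.22% higher and 4.13% lower. Where counts at an unadjusted p under 0.05 (limma) are given, 2542 of all 14589 genes were higher and 1569 lower at that limit. Genes of G2/M, which drive chromosome condensation and division, were higher after Si-FIBP#2. Of 54, 30 passed the adjusted p as higher and 0 as lower (43 and 0 at an unadjusted p under 0.05), and the list median was 0.394. In bulk RNA, fewer dividing cells and less of these mRNAs in each cell cannot be told apart. HMGB2, a chromatin protein, was at 52.65, 50.15 and 58.55 FPKM after Si-FIBP#1 and at 114.87, 88.50 and 108.74 FPKM after Si-FIBP#2 (difference 0.93, limma, adjusted p = 0.00339), both under the 215 FPKM of Scramble. BIRC5, survivin of the chromosomal passenger complex, was at 20.46, 18.73 and 23.70 FPKM and at 37.57, 34.81 and 41.48 FPKM (difference 0.83, adjusted p = 0.00462), and ANLN, AURKA and MKI67 rose by 0.66, 0.53 and 0.53. The lowest member was ANP32E at -0.18 (adjusted p = 0.218). No member reached 2-fold, and the number passing as higher was 7 without Si-FIBP#2 replicate 3, 34 without Si-FIBP#2 replicate 2 and 8 without Si-FIBP#1 replicate 2, while that of all genes moved from 271 to 1324. Ranges of the counts of the other lists over the 6 fits with a library left out stand in brackets below. Of 43 S phase genes 2 were higher (1 to 4) and 3 lower (0 to 3), with TYMS, thymidylate synthase, at 0.67 (adjusted p = 0.00652) and GMNN, the replication licensing inhibitor geminin, at -0.59 (adjusted p = 0.0239). Of 35 replication-dependent histone genes 3 were lower (1 to 6) and 0 higher (0 to 1), and their copies are nearly identical, so single members are uncertain. H4C11 was listed at 14.58, 0 and 0 FPKM after Si-FIBP#1 and at 6.84, 0 and 8.55 FPKM after Si-FIBP#2. The libraries were poly(A)-selected, and how fully they captured histone mRNAs was not tested.

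Few repair genes differed between the groups. Of 28 homologous recombination genes only SEM1, a small partner of BRCA2 and a proteasome subunit, passed, at -0.32 (limma, adjusted p = 0.0357), and the list median was 0.052. With a library left out, 0 of the list passed as lower in 5 of the 6 fits, and 1 without Si-FIBP#2 replicate 2 (0 to 1 higher). The highest was POLD1, the catalytic subunit of DNA polymerase delta, at 0.34 (adjusted p = 0.0955). EME1, a subunit of a structure-specific endonuclease, was at 7.18, 7.17 and 8.12 FPKM after Si-FIBP#1 and at 8.14, 7.26 and 8.89 FPKM after Si-FIBP#2, with Scramble at 24.2 FPKM. The groups overlapped and the difference was 0.10 with an interval of -0.13 to 0.33 (adjusted p = 0.574). Of 24 Fanconi and end joining genes FANCI was higher, at 0.57 (0 to 2), and XRCC5 lower, at -0.19 (0 to 1).

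Genes that respond to stress included CDKN1A and, below 2-fold, several more that were higher after Si-FIBP#2. Of 29 CDK inhibitor and damage-responsive genes 7 passed as higher (3 to 7) and 1 as lower (1 to 3), with a median of 0.158. GDF15, a stress-induced cytokine, was at 0.48, 0.54 and 0.50 FPKM after Si-FIBP#1 and at 2.64, 1.79 and 1.39 FPKM after Si-FIBP#2, with Scramble at 2.26 FPKM (difference 0.94, limma, adjusted p = 0.0185). It passed the filter only through the Si-FIBP#2 samples, where it was high. It counts as higher both in this list and in that of the integrated stress response. SESN1 and AEN were at 0.71 and 0.65, and CDKN2A, which encodes the inhibitor p16, was lower at -0.44 (adjusted p = 0.00488). Of 33 genes of the integrated stress response 8 were higher (1 to 10) and 2 lower (0 to 3), with a median of 0.151 and with VLDLR, a lipoprotein receptor, at 0.81 and PSPH, of serine synthesis, at -0.34. The endoplasmic reticulum unfolded protein response had 0 of 24 on either side by limma, with 1 higher and 2 lower at an unadjusted p under 0.05, and 4 passed as lower without Si-FIBP#2 replicate 2.

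Signalling lists were mixed in direction. Of 22 MAPK feedback genes 7 were higher (1 to 9) and 3 lower (1 to 3), with a median of 0.267. DUSP5, a nuclear ERK phosphatase, was at 38.72, 41.46 and 39.95 FPKM after Si-FIBP#1 and at 70.32, 63.66 and 75.91 FPKM after Si-FIBP#2 (difference 0.79, limma, adjusted p = 0.00245), while SPRY1, an inhibitor of receptor tyrosine kinase signals, was at 8.32, 7.86 and 7.46 FPKM and at 5.24, 2.33 and 3.52 FPKM (difference -0.96, adjusted p = 0.026). Of 21 AP-1 and immediate early genes JUN and FOS were higher, at 0.60 and 0.69 (1 to 5), and MYC, NR4A2 and ZFP36 lower (1 to 2). MYC was at 80.62, 79.57 and 76.28 FPKM after Si-FIBP#1, at 49.35, 48.70 and 46.01 FPKM after Si-FIBP#2 and at 77.6 FPKM with Scramble (difference -0.70, adjusted p = 0.00114), so it left the control level only after Si-FIBP#2. STAT3 itself was at 31.3 ± 0.595 and 29.4 ± 0.325 FPKM (SD, n = 3) against 17.9 FPKM with Scramble. Its groups did not overlap, yet the difference of -0.09 did not pass (adjusted p = 0.357), and it was 0.09 when only annotated transcripts were summed. Of 24 genes of STAT3 and its feedback 6 were higher (3 to 4), IL6ST, the receptor subunit gp130, among them at 0.71, and MYC alone was lower (1 in each fit).

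In the matrix and adhesion lists, LAMB3 and some integrins were higher after Si-FIBP#2 while FN1, fibronectin, and 5 of 25 TGF-beta genes were lower. Of 26 collagens, laminins and integrins 6 were higher (2 to 7) and 4 lower (0 to 4), including LAMB3 at 1.22, ITGB3 and ITGB4 at 0.89 and 0.57, and, on the lower side, ITGB1 and FN1 at -1.46 and -0.61. Of 25 TGF-beta ligands, receptors and targets 1 was higher (0 to 2) and 5 lower (2 to 5), 12 had differences above 0 and the median was -0.102, and ID3, PMEPA1, ID1 and BMPR1A were among the lower ones. PMEPA1, a feedback inhibitor of the pathway, was at 6.43, 6.29 and 6.15 FPKM after Si-FIBP#1 and at 2.03, 4.0 and 3.03 FPKM after Si-FIBP#2 (difference -0.89, limma, adjusted p = 0.0198). Of 25 YAP-TEAD targets 4 were higher (0 to 4) and 5 lower (2 to 5), with CCN2 and CCN1, secreted matrix regulators, at -0.73 and -0.52 beside THBS1. Of 15 genes of epithelial-mesenchymal transition 1 was higher (0 to 1) and 3 lower (2 to 3), among them CLDN1 at -0.97 and FN1.

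Of 33 lysosome genes 7 were higher (5 to 7) and 0 lower (0 to 4), but only LAMP1 was called. The next were GUSB, beta-glucuronidase, and MCOLN1, a lysosomal cation channel, at 0.68 and 0.58 (limma, adjusted p = 0.00283 and 0.00518), and the list median of 0.080 was near that of all genes. Without Si-FIBP#2 replicate 2 a further 4 of the list passed as lower. All 13 mitochondrially encoded genes had differences below 0, from -0.30 for MT-CO3 to -0.06 for MT-ND6, and 7 passed as lower. The share of these transcripts in the libraries differed between the groups, as given above, and its part in other results was not tested. The count was 9 under median ratio scaling, 6 under TPM scaling and between 0 and 8 with a library left out. Of 77 cytosolic ribosomal protein genes 9 passed as lower (2 to 9) and 63 had differences below 0 (median -0.088), with RPS24 lowest at -0.35, 12 passing under median ratio scaling and 5 under TPM scaling. Without Si-FIBP#2 replicate 2 the ribosomal median was -0.046, with 2 higher and 9 lower.

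The remaining lists had members on both sides or few that passed. Of 34 glycolysis and hypoxia genes 3 were higher (STC1, ANGPTL4 at 0.92 and ENO2 at 0.70, with a range of 3 to 5) and 4 lower (2 to 5), among them PGK1 at -0.49, and the median was 0.009. Of 27 NRF2, glutathione and iron genes 2 were higher (2 to 4) and 2 lower (0 to 4), led by OSGIN1 at 0.61 and HMOX1 at -0.64. Of 31 sterol and fatty acid genes 3 were on each side (1 to 2 higher and 0 to 6 lower), with SCD at 0.52 and TM7SF2 at -0.43. Of 29 interferon-stimulated genes 1 was higher (0 to 1) and 2 lower (1 to 3), IFITM3 at -0.59 among them and ISG20 at 0.54 not passing. Of 8 inflammatory cytokines 1 was higher (0 in 5 of the 6 fits with a library left out), and of 14 common reference genes GUSB was higher (1 to 2) and PGK1 lower (1 in each fit). None of 12 genes of the RNA interference machinery passed on either side by limma, with 5 higher and 1 lower at an unadjusted p under 0.05, and 0 to 1 passed as higher with a library left out. There TNRC6A, a partner of Argonaute, was at -0.34 (limma, adjusted p = 0.104) and TNRC6C at 0.39 (adjusted p = 0.112). None of 3 keratins passed, also at an unadjusted p under 0.05 (0 of 3).

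**Figure D3:**
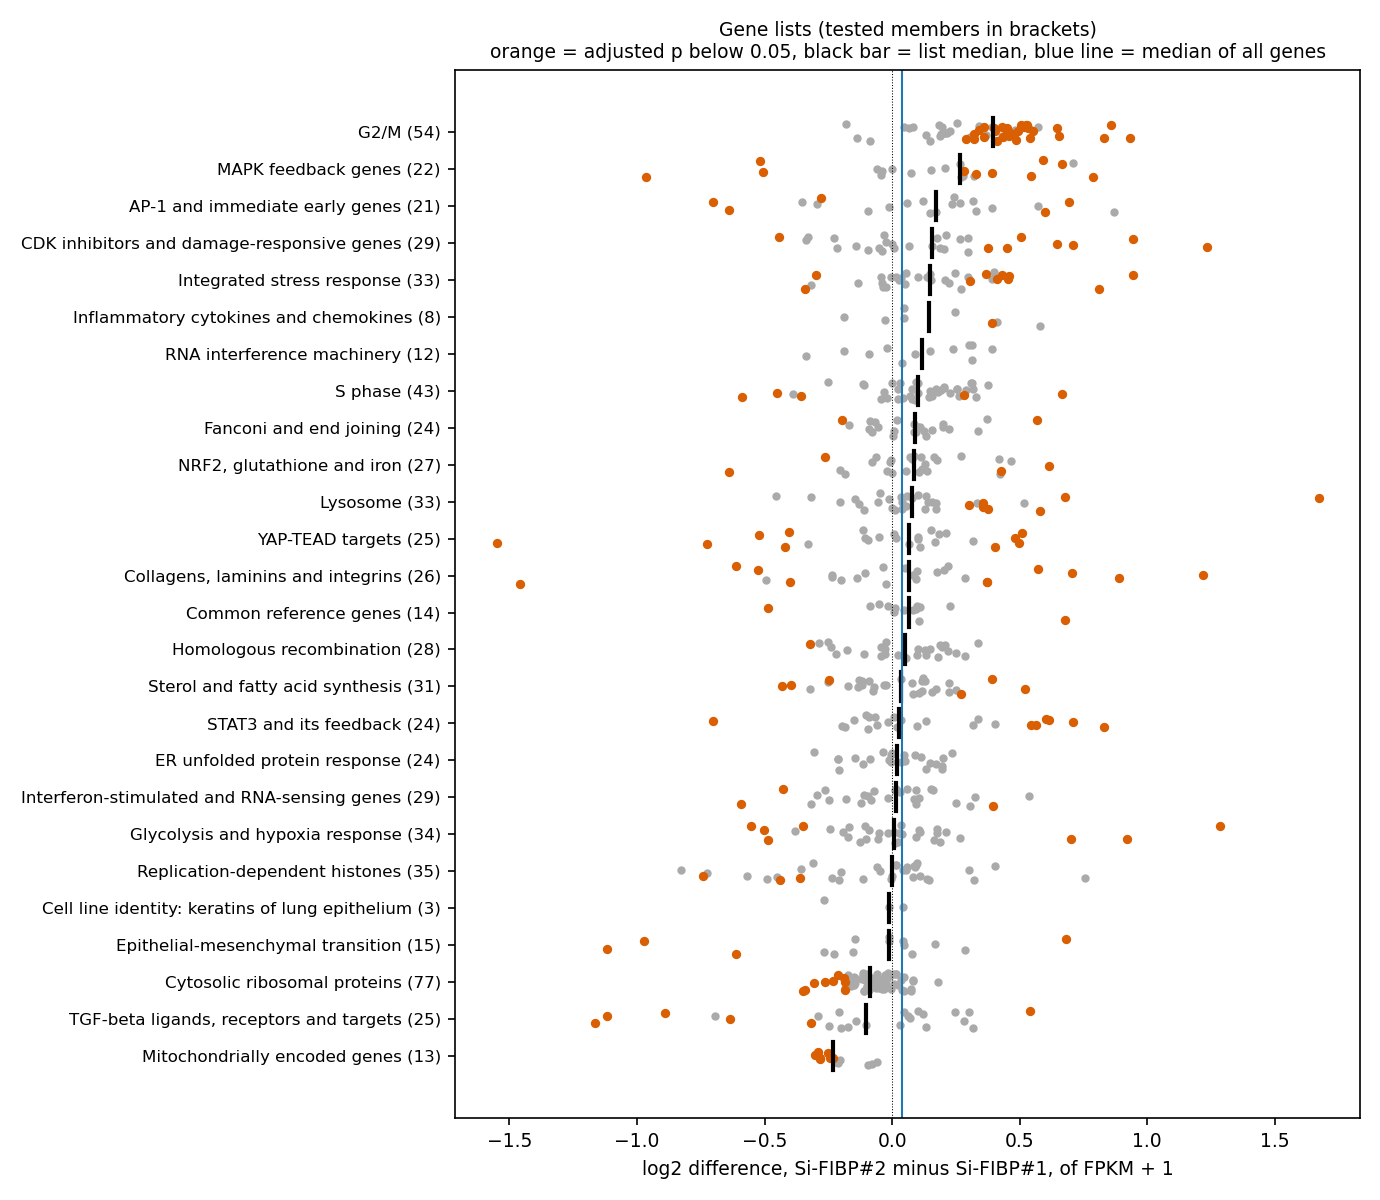
Log2 difference, Si-FIBP#2 minus Si-FIBP#1, on the x axis for the tested members of each gene list on the y axis (points are genes, orange where the adjusted p was below 0.05, black bars are list medians, and the blue line is the median of all genes, 0.039). G2/M genes have the highest median, 0.394, and mitochondrially encoded genes the lowest, -0.231.

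The deposited tables attach KEGG maps, drawings of pathways, to part of the genes. Of 333 maps, 293 had at least 15 tested genes, and 6340 genes carried a map. Over these genes 0.489% were called and the median was 0.039. The bladder cancer map had 2 of 37 (THBS1 and CDKN1A, 5.41%), and the malaria map (THBS1), lacto-series glycosphingolipid synthesis (B4GALT3), collecting duct acid secretion (ATP6V0E1) and mannose type O-glycan synthesis (B4GALT3) each owed 4.76% to 6.67% to 1 gene.

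By the median, the highest maps were viral protein interaction with cytokines (0.210 over 16 genes), salivary secretion (0.204 over 46, with DMBT1), biosynthesis of unsaturated fatty acids (0.202 over 23), amphetamine addiction (0.183 over 42), cytokine-cytokine receptor interaction (0.172 over 79) and inflammatory regulation of TRP channels (0.158 over 64). Of all genes tested, 7.22% passed the adjusted p as higher and 4.13% as lower. In unsaturated fatty acid synthesis 7 genes were higher and 0 lower at the adjusted p, and in the map of cytokine-cytokine receptor interaction, which holds ligands as well as receptors, 15 and 3. SPDYA, an activator of cyclin-dependent kinases, carried the labels of 2 of these maps in the deposited tables and was their called gene, at 1.18 (limma, adjusted p = 0.00387). It overlaps PPP1CB on the same strand, and whether the labels of these maps belong to SPDYA or to PPP1CB was not tested. The lowest medians were those of mucin type O-glycan synthesis (-0.115 over 16), arginine synthesis (-0.068 over 17), other O-glycans (-0.062 over 35), mannose type O-glycans (-0.053 over 21), ribosome (-0.048 over 247) and ribosome biogenesis (-0.046 over 100). The median deviations of single libraries overlapped between the groups in arginine synthesis and in the mucin type, other and mannose type O-glycan maps. In arginine synthesis 2 genes passed the adjusted p as higher and 1 as lower. In the ribosome map 7 of 247 genes passed as higher and 14 as lower, to be read against the shares of all genes given above. Medians were above 0 in 262 maps and below 0 in 31, and 57.4% of single genes were above 0. The median of all genes was 0.039, against 0.001 under median ratio scaling and 0.080 under TPM scaling. The side of 0 on which a small median lies therefore depends on the scaling.

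The 3′ UTRs of genes that differed were then read for the matches of both guides. Among 11512 coding genes with a 3′ UTR, the Si-FIBP#2 match TTTGCTA was held by 13 of the 29 genes called higher (44.8%), by 4 of the 31 called lower (12.9%) and by 12.9% of all. DAG1 and ITGB1 were among the 4 called lower that hold it. The median difference was higher with more matches, from 0.035 in 10024 genes without one to 0.086 with 1, 0.109 with 2 and 0.248 in 57 genes with 3 or more. The share that passed the adjusted p as higher went from 7.3% to 26.3% over the same classes. The Si-FIBP#1 match TTCAGCA was held by 2 of 29 genes called higher, 7 of 31 called lower (22.6%) and 13.4% of all, and its medians ran from 0.040 without a match to 0.072 with 3 or more. The median 3′ UTR was 2810 bases long with a Si-FIBP#2 match and 766 without, so the classes also differ in length. Sites of genes called higher are shown to compare with the Si-FIBP#2 target, with the seed match in capitals.
LAMP1 first site: acggtgttaatTTTGCTAa
LAMP1 second site: gggttaaatatTTTGCTAa
TMED9: ttctgtcttccTTTGCTAa
GINS1: aagaagtataaTTTGCTAa
SLC44A1: aaaaagtgtaaTTTGCTAa
STMP1: cacttctcttcTTTGCTAg
They lie at chr13:113322593-113322611 and chr13:113322614-113322632 for LAMP1, chr5:177595761-177595779 for TMED9, chr20:25446128-25446146 for GINS1, chr9:105390277-105390295 for SLC44A1 and chr7:135674268-135674286 for STMP1, all on the plus strand of GRCh38.

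The LAMP1 sites start at positions 183 and 204 of its 3′ UTR and share 11 and 10 of 19 bases with the FIBP target. TMED9, a cargo receptor of the early secretory pathway, was at 47.80, 53.01 and 54.67 FPKM after Si-FIBP#1, at 104.34, 135.89 and 111.92 FPKM after Si-FIBP#2 and at 91.0 FPKM with Scramble, a log2 difference of 1.16 (limma, adjusted p = 0.00177). SLC44A1, a choline transporter with 4 matches, was at 2.35, 2.43 and 3.01 FPKM and at 8.57, 9.23 and 7.77 FPKM, with Scramble at 6.26 FPKM (difference 1.41, adjusted p = 0.00114). In both, as in LAMP1, the Si-FIBP#1 samples were the low ones and Scramble lay between the groups. STMP1, a short mitochondrial protein, had the closest site of all called genes, alike at 14 of 19 positions with an unbroken run of 12 bases, and was at 14.2 ± 2.08 FPKM after Si-FIBP#1 and 29.8 ± 0.615 FPKM after Si-FIBP#2 (SD, n = 3; difference 1.02, adjusted p = 0.00283). TMED9, SLC44A1 and STMP1 were named after their values were seen.

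Set against the Scramble mean, genes with a Si-FIBP#2 match were lower than genes without by 0.079, 0.071 and 0.021 on the log2 scale in the libraries labelled Si-FIBP#1, whereas in those labelled Si-FIBP#2 they differed by 0.020, 0.012 and 0.009. The 2 groups did not overlap, and the lower libraries were not those labelled with the siRNA that carries this seed. The Scramble libraries ranged from -0.023 to 0.013, a range that holds the value of Si-FIBP#1 replicate 3. Genes with a Si-FIBP#1 match were lower in all 6 libraries, with gaps of -0.111, -0.144 and -0.120 after Si-FIBP#1 and -0.086, -0.127 and -0.122 after Si-FIBP#2, and there the groups overlapped. The 44 genes with 3 or more such matches had medians of 0.057, -0.002 and 0.053 after Si-FIBP#1. Genes without a match had 0.062, 0.077 and 0.082 there. After Si-FIBP#2 the medians were 0.121, 0.081 and 0.121 against 0.088, 0.136 and 0.106. The gap between the siRNAs was 0.057 for the Si-FIBP#2 match and 0.014 for the Si-FIBP#1 match. Of the 52 windows of 7 bases along both strands of both siRNAs, TTGCTAA, next to the Si-FIBP#2 match, had 0.078, and the 50 others, the Si-FIBP#1 match included, ran from -0.015 to 0.042. What sets the direction of the Si-FIBP#2 match was not tested.

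All 7-base words were then ranked by the gap in median difference between genes with and without the word, over 15362 words found in at least 100 of the 3′ UTRs. These words were ranked on the same contrast that the text describes, so the ranks describe and test nothing. The second highest gap was that of TTGCTAA, which overlaps the Si-FIBP#2 seed match (0.078 over 1200 genes, 11 of the 29 called higher), and TTTGCTA ranked 24 from the top. At the other end the 5 lowest words overlapped one another. The lowest, CCGAAGA, had a gap of -0.111 over 214 genes, ACCGAAG had -0.096 and GCCGAAG had -0.092, while AACCGAA had -0.088 and AAACCGA had -0.076, with 8 of the 31 genes called lower holding each of the last 2. Of the 20 lowest words 9 contained CCGA, and none of the 9 occurs in either listed siRNA on either strand. At least 1 of these 9 was found in 18 of the 31 genes called lower (58.1%), in 2 of the 29 called higher (6.9%) and in 1213 of all 11512. The words were picked for low differences on this contrast, so these shares restate that choice. Sites of some of the 18 genes called lower are shown, with the matched letters in capitals.
BTF3: ctaattAAGCCGAAGAagc
PRPSAP2: attgaaAAGCCGAAaagat
ARL6IP5: cctcagAAACCGAAagaaa
STK40: catcttAAACCGAActcaa
B4GALT3: atcatgAAACCGAAttcat
DAP: tgagaaAAGCCGAAaaagc
NOC2L: catccgAAACCGAAagaaa
IRF2BP1: ttcaatAAACCGAAagatg
On GRCh38 they lie at chr5:73505429-73505447 (BTF3), chr17:18931067-18931085 (PRPSAP2) and chr3:69104811-69104829 (ARL6IP5) on the plus strand, and at chr1:36341208-36341226 (STK40), chr1:161171775-161171793 (B4GALT3), chr5:10680480-10680498 (DAP), chr1:944235-944253 (NOC2L) and chr19:45883621-45883639 (IRF2BP1) on the minus strand.

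BTF3, PRPSAP2 and ARL6IP5 thus each hold a stretch of 3′ UTR that reads AAGCCGAA or AAACCGAA. DAG1, ITGB1, THBS1 and MRPS12, also called lower, are not among the 18 genes called lower that hold any of the words. STK40, a kinase-like protein, was at 32.89, 31.74 and 28.94 FPKM after Si-FIBP#1, at 11.82, 15.75 and 12.39 FPKM after Si-FIBP#2 and at 27.6 FPKM with Scramble, and S1PR1, a sphingosine 1-phosphate receptor with 2 such stretches, was at 4.91 ± 0.779 and 1.94 ± 0.208 FPKM (SD, n = 3). Their differences were -1.18 and -1.0 (limma, adjusted p = 0.00235 and 0.00531). STK40, DAP, NOC2L, IRF2BP1 and S1PR1 were named after their values were seen. At least 1 of the 9 words was held by 21.1% of 527 coding genes lower at the adjusted p alone and by 6.4% of 934 higher. The median difference of genes with a word was -0.006 against 0.049 in genes without, values that the choice of the words also fixes. By library, genes with these words lay 0.044, 0.043 and 0.055 below the others after Si-FIBP#2 and 0.020, 0.000 and 0.022 above them after Si-FIBP#1, with Scramble between -0.003 and 0.001. That the siRNA groups lie apart there follows from the choice of the words. Here too the 3′ UTRs were longer, with a median of 2314 bases against 816. The FIBP transcripts hold none of the words themselves, but 8 of 13 hold the reverse complement of ACCGAAG and 8 of 13 that of CCGAAGC.

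**Figure D4:**
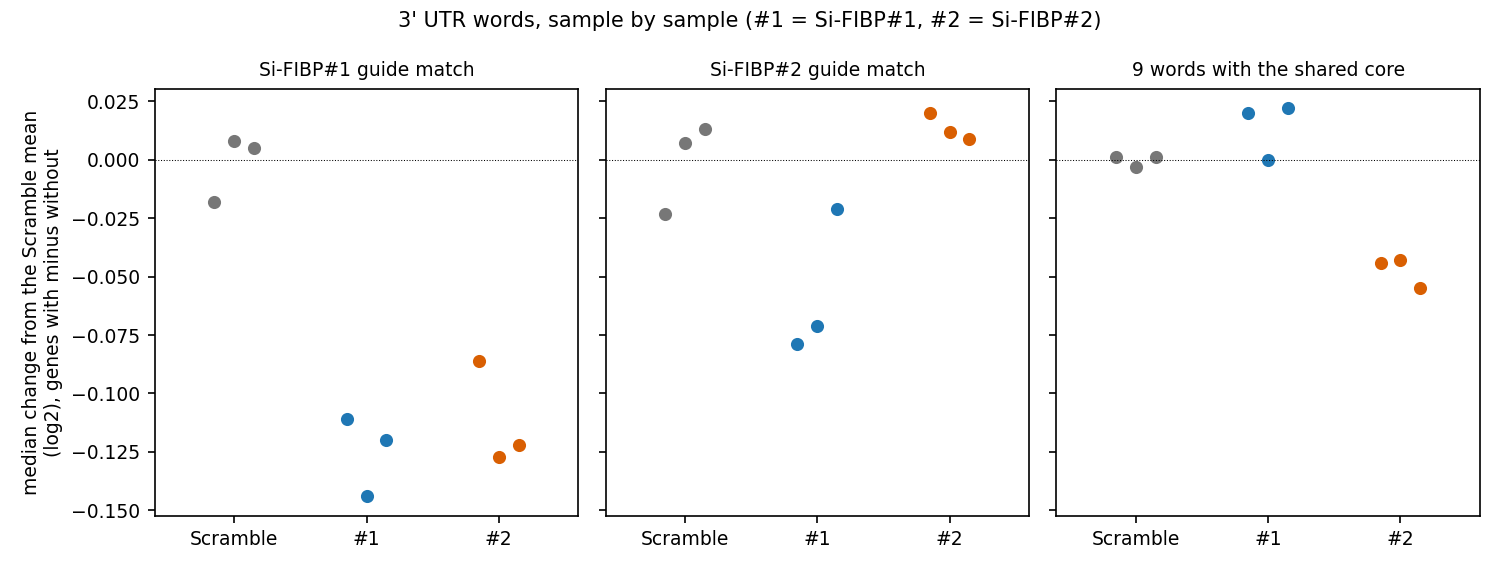
Median log2 change from the Scramble mean of genes with minus genes without a match (y axis) in each of the 9 libraries (points), by group (x axis), for the Si-FIBP#1 guide match, the Si-FIBP#2 guide match and the 9 words that contain CCGA. The Si-FIBP#2 guide match is lowest in the Si-FIBP#1 libraries, at -0.079 to -0.021, and the 9 words, chosen for low values there, are lowest in the Si-FIBP#2 libraries, at -0.055 to -0.043.

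Across the whole mRNA, long unbroken matches to either siRNA were rare among the genes called. The longest run shared with any strand of either siRNA was the 12 bases of STMP1, followed by 11 bases of PLSCR4 with the Si-FIBP#1 guide, and runs of 11 or more were present in 1.2% to 1.8% of all tested genes, depending on the strand. BTF3, PRPSAP2 and ARL6IP5 shared at most 8 bases with any strand.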

How the data were processed

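Total RNA of H1299 cells was extracted with TRIzol and poly(A)-selected, paired-end libraries were sequenced. The deposited tables of the authors hold FPKM per transcript, annotated and assembled, and the submitters' processing notes name HISAT2 and StringTie. The genome build and annotation are not given in the sources used here, nor is strand. The series describes the 3 samples of a group as independent. FPKM were summed over transcripts per gene identifier. They are not counts, so genes at 1 FPKM or more in no fewer than 3 of these 6 samples entered the test on log2(FPKM + 1), a scale that understates changes of low genes, with limma 3.58.1 in R 4.3.3 (empirical Bayes with a mean-variance trend) and Benjamini-Hochberg adjustment over 14589 genes. Depth was estimated from steps between low FPKM values. The fit was tested on simulated data with 200 changed genes. Scripts used Python 3.11.15, pandas 2.3.3, numpy 2.4.6, scipy 1.17.1 and matplotlib 3.10.9.

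Named genes were FIBP, EME1, STAT3, CDKN1A and STC1, the 12 with the largest called difference on each side that had a symbol and did not overlap between groups, up to 4 called members of each list (otherwise its extremes), and the called genes of the 6 highest, 6 lowest and 6 most often called KEGG maps. Other list members that passed the adjusted p are also named, after their values were seen. Some genes and 1 map that the rule names are not reported here. The members, the gene lists and the search for seed matches were chosen with earlier results of these data known. Matches were sought in the 3′ UTR of 1 transcript per gene of GENCODE release 29 (GRCh38), whose models can differ from those that were quantified. Alternatives were other scalings, pseudocounts and filters, annotated transcripts only, all 9 samples, a replicate block and leaving out each library. Same-numbered replicates of both groups had correlated deviations of 0.084, 0.130 and 0.014. Pairs of different numbers ran from -0.12 to 0.054, and each same-numbered value was the highest for its Si-FIBP#1 replicate. Si-FIBP#2 replicate 3, however, had its highest value, 0.054, with Si-FIBP#1 replicate 1. These values are small and do not settle whether the numbers pair the samples.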

Additional observations from a re-analysis of the deposited data

How the results depend on the processing

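The count of 88 genes called (46 higher, 42 lower after Si-FIBP#2) was 164 with a pseudocount of 0.1 (102 higher), 58 without a filter on low values (27 lower) and 1656 without the 2-fold limit (1053 higher, 603 lower). With a library left out it ranged from 68 to 131, with 38 to 75 higher and 30 to 56 lower, the largest being without Si-FIBP#2 replicate 2. The share of calls that were higher was 52.3%, against 44.8% of 87 calls under median ratio scaling and 67.0% of 106 under TPM scaling (71 higher). Under a replicate block 91 genes were called, 85 of them shared, and AL356737.1 was lost (limma, adjusted p = 0.0643). Whether the replicate numbers pair the samples is not settled. Under the other alternatives the count was 67 to 82. Of 497 recomputed values of the 34 named genes that were called, 421 kept the call, 76 lost it and 0 turned. FIBP ranged from -0.10 to 0.26 with a library left out, the lowest being without Si-FIBP#1 replicate 3, STAT3 turned to 0.09 with annotated transcripts only, and KRT8 was at -0.00 under median ratio scaling and at -0.03 to 0.13 with a library left out, none of them called. With a library left out, 271 to 1324 of all genes passed the adjusted p as higher and 161 to 989 as lower, both largest without Si-FIBP#2 replicate 2, where sterol genes higher went from 3 to 2 and STAT3 and feedback genes higher from 6 to 4. The causes of these changes were not tested. With 3 samples a group and FPKM in place of counts, genes near 1 FPKM and features shorter than a fragment are the least certain.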

Other observations

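Assembled loci without a gene symbol were also called between the siRNAs. MSTRG.16847 was at 5.57, 6.58 and 6.08 FPKM after Si-FIBP#1 and at 1.77, 3.07 and 0.87 FPKM after Si-FIBP#2 (log2 difference -1.35, limma, adjusted p = 0.0173), MSTRG.21253 had a difference of -1.20 (adjusted p = 0.00977) and MSTRG.27444 of 1.19 (adjusted p = 0.0146). Their longest transcripts had 310, 274 and 240 nt, and their positions were not analysed here.

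Some genes called outside the lists are named here after their values were seen. KMT5A, which methylates histone H4, was at 24.06, 24.91 and 23.87 FPKM after Si-FIBP#1, at 11.10, 11.89 and 11.65 FPKM after Si-FIBP#2 and at 36.1 FPKM with Scramble (difference -1.01, limma, adjusted p = 0.000877). CENPQ, a kinetochore protein, went from 9.12 ± 0.205 to 3.88 ± 1.18 FPKM (SD, n = 3; difference -1.08, adjusted p = 0.00785), and it fell while 30 of the 54 G2/M genes were higher. PTHLH, parathyroid hormone-like hormone, NTSR1, a neurotensin receptor, and SPHK1, sphingosine kinase 1, were higher, at 1.13, 1.14 and 1.15, and S1PR1, a receptor for the product of SPHK1, was lower at -1.0. The cancer-testis gene MAGEA2B was lower at -1.03 and shares reads with its near-identical copy MAGEA2, so its value is uncertain.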
